A study of Arabidopsis thaliana with 4 samples.

Results

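AT2G20670 and its relatives are Arabidopsis genes whose proteins share DUF506, a conserved protein region of unknown function that is also called PDDEXK-like. The list held 7 loci, and those kept were the ones with a probe set that the platform annotation pairs with a single gene. There were 4 such loci, AT2G20670, AT2G38820, AT3G22970 and AT1G12030, with 1 probe set each, out of 13513 probe sets with a single gene name. AT4G32480, AT3G25240 and AT4G14620 had no such probe set in the tables used and are not analysed here. AT2G20670 was chosen by its signals on the KIN10 and control arrays, as one of the largest differences in these data, so its values are a description and carry no test. The relatives were listed by family, but with results of the same comparison already known.

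The series compared mesophyll protoplasts (photosynthetic leaf cells whose walls were digested away) after transfection with a plasmid expressing KIN10 (AT3G01090) and after transfection with control plasmid DNA. Each group was kept in the light for 6 h and measured on 2 Affymetrix arrays, 1 per experiment, and per the design text the experiments were independent ones by different people with their own plants, DNA and array facility. Within an experiment both transfections drew on protoplasts pooled from 36 plants and used 1 mg of DNA. Every cell was thus a protoplast under transient transfection, in the control group too, and the sources used here do not give the promoter that drives KIN10 or the plants' accession.

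KIN10 is a catalytic subunit of SnRK1, the plant relative of the yeast kinase SNF1 and animal AMPK. SnRK1 is active when sugar or energy runs short, and it then favours transcripts for breakdown and recycling over those for growth. What DUF506 proteins do biochemically is largely unknown. The best described member of the list, AT3G25240, is known as RXR1, a repressor of root hair growth that is induced by phosphate limitation, and it is one of the loci without a value here.

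The 4 arrays had been scaled by the authors to the same trimmed mean, yet their median signals were 522 and 276 on the KIN10 arrays of experiments 1 and 2 and 490 and 344 on the control arrays. All changes below are log2 differences, KIN10 minus control, after each array was centred on its median. The fit kept 13648 probe sets with sufficient signal, and in limma 30.2% of them passed an adjusted p under 0.05, 14.7% higher and 15.5% lower with KIN10. On the scale of 18 hybridization spike-in probe sets 841 were higher and 2890 lower (22.5% of calls higher, against 48.7% after median centring), and the median change of all tested probe sets was -0.34 instead of 0.033. Without the experiment as a block only 173 probe sets passed. In the fit with the block, then, calls were common, but how common depends on the block. The counts among these few loci come from that fit and are read against its shares.

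AT2G20670 had signals of 27796 and 28925 on the KIN10 arrays of experiments 1 and 2, against 498 and 634 on the control arrays. Both KIN10 arrays were far above both control arrays, and in these deposited signals the arrays within each group lay close together. After centring they lay further apart, with log2 values of 5.74 and 6.71 on the KIN10 arrays and 0.02 and 0.88 on the control arrays. The log2 changes were 5.71 in experiment 1 and 5.83 in experiment 2, and their mean of 5.77 equals a 54.6-fold difference (n = 2 arrays per group). In these whole-sample RNA preparations, a change in the share of cells of a type and a change in RNA per cell cannot be told apart.

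The change of AT2G20670 ranked 7th of the 13648 tested probe sets by its mean, 9th in experiment 1 and 17th in experiment 2. Its values in the experiments lay 0.12 apart. Among the 100 probe sets with the largest mean rises, the median distance between the experiments was 1.15, and 7 lay closer together than AT2G20670. Among the 859 probe sets that were at least 2-fold higher in both experiments (6.29% of those tested), the median distance was 0.47 and 134 lay closer together. These counts were made after median centring, and the closeness rests on that scaling. In the values as deposited the changes were 5.80 and 5.51, or 0.29 apart and with experiment 1 the higher. After quantile normalization they were 6.10 and 5.29 in experiments 1 and 2, further apart still. On the spike-in scale the mean change was 5.40.

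**Figure D1:**
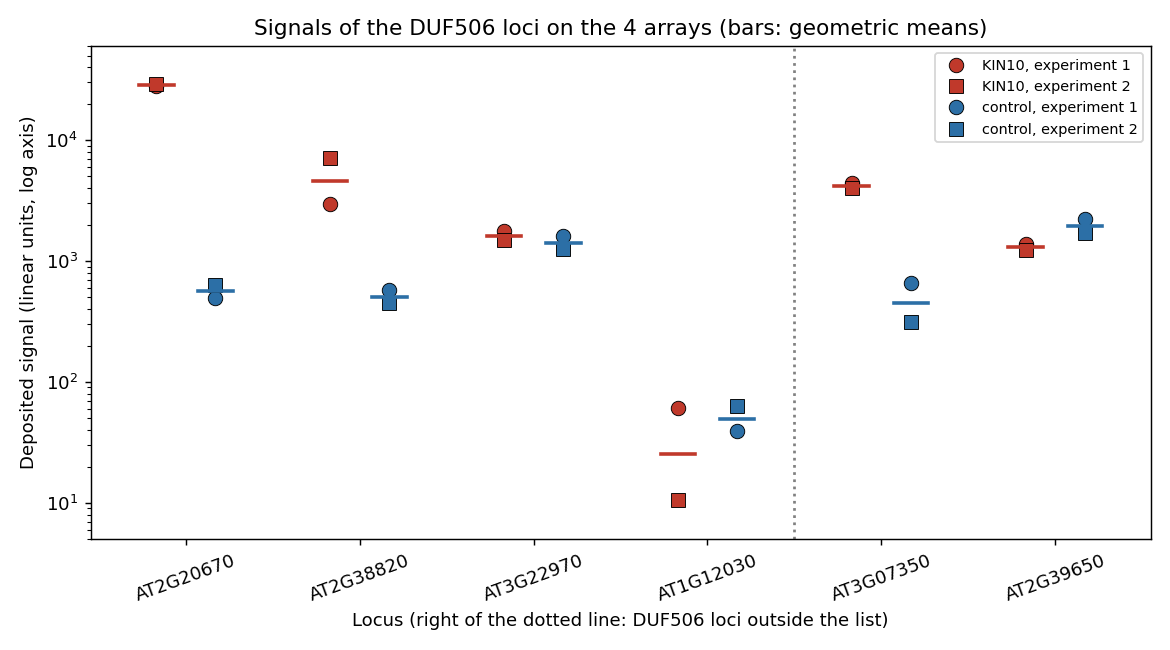
Deposited signal (linear units on a log axis) of each DUF506 locus on the KIN10 arrays (red) and control arrays (blue), with circles for experiment 1, squares for experiment 2 and bars for the geometric mean of the 2 arrays. AT2G20670 and AT2G38820, and AT3G07350 outside the list, have both KIN10 arrays above both control arrays, as do 21.9% of all tested probe sets. AT3G22970 and AT1G12030 overlap between the groups. AT2G39650 has both KIN10 arrays below both control arrays, an order whose share over all tested probe sets was not counted.

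AT2G38820 was the relative with the largest change among the 3 that have a value. Its signals were 2947 and 7082 on the KIN10 arrays of experiments 1 and 2, against 573 and 451 on the control arrays. The groups did not overlap, which held for 21.9% of all tested probe sets in this direction, and the KIN10 array of experiment 2 was 2.40 times that of experiment 1 while the control arrays lay close together. AT2G38820 rose 9.72-fold with KIN10, a log2 change of 3.28 ± 0.28 (SE of the fit, n = 2 arrays per group, limma adjusted p = 4.63e-28, and 1.26e-30 to 0.0380 over the other settings with all 4 arrays).

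The experiments gave AT2G38820 changes of different size, 2.27 in experiment 1 and 4.29 in experiment 2. The SD of these changes was 1.43. The SE of the fit, 0.28, is that of their mean, so it is not directly comparable with this SD. Without the block the SE was 0.67. The SE of the fit with the block is drawn almost wholly from the other probe sets, with a prior of 1311 degrees of freedom against 1 residual degree of freedom. With the arrays centred on the kept probe sets instead, that prior had 9.67 degrees of freedom and AT2G38820 had an adjusted p = 5.79e-05 in limma. When single arrays were left out and no block was fitted, its change was 2.19 without KIN10 array 2 and 4.37 without KIN10 array 1, and it was not called without control array 1 (3.20, limma adjusted p = 0.390) or without control array 2 (3.36, limma adjusted p = 0.324). The direction was the same in each of these fits.

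AT3G22970 showed no difference beyond the error of the fit. Its signals were 1784 and 1480 on the KIN10 arrays of experiments 1 and 2, against 1602 and 1248 on the control arrays. Within each experiment the KIN10 array was slightly higher. The deposited signals of the groups overlapped, since the KIN10 array of experiment 2 lay below the control array of experiment 1. The groups overlapped after median centring too, with the KIN10 array of experiment 1 below the control array of experiment 2. The log2 change was 0.32 ± 0.28 (SE, n = 2 arrays per group, limma adjusted p = 0.432, and 0.319 to 0.942 over the other settings with all 4 arrays), with 0.07 in experiment 1 and 0.56 in experiment 2. Its 95% interval ran from 0.852-fold to 1.82-fold, but this width rests on the pooled SE. On the log2 scale the upper limit was 0.86 in this fit, 1.44 without the block, and without the block 1.89 when KIN10 array 1 was left out and 2.40 when control array 2 was, so these arrays do not settle how large a rise could be. On the spike-in scale the change was -0.06, and without KIN10 array 2 and the block it was -0.01, so no direction can be given.

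**Figure D2:**
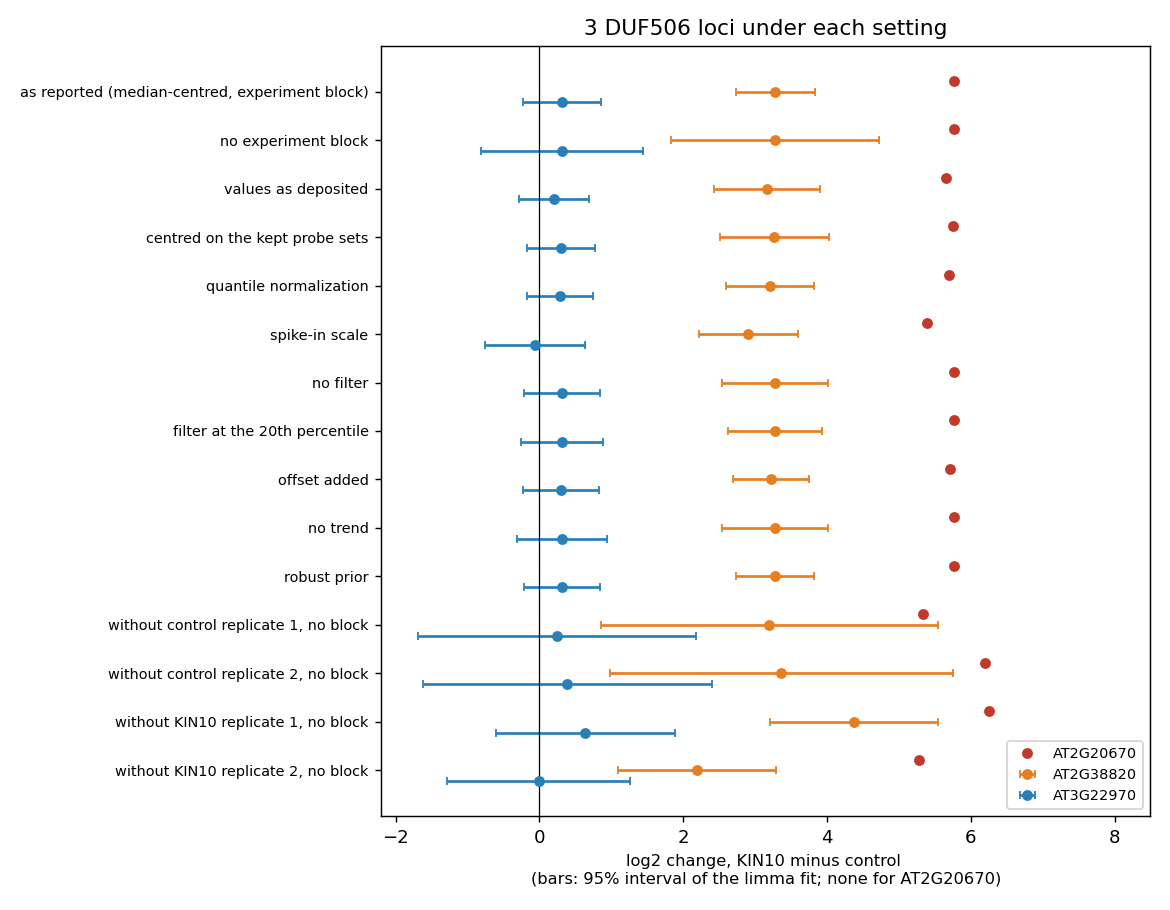
Log2 change (KIN10 minus control) of AT2G20670, AT2G38820 and AT3G22970 under each setting of the fit, with 95% intervals from limma for the relatives and values only for AT2G20670, which was selected on this difference. AT2G20670 stays between 5.28 and 6.26 and AT2G38820 between 2.19 and 4.37, while every interval of AT3G22970 includes 0, and the intervals of both relatives are widest where a control array is left out.

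AT1G12030 was near the low end of the arrays and did not pass the filter on low signals. Its signals were 60.4 and 10.5 on the KIN10 arrays of experiments 1 and 2, against 39.4 and 62.7 on the control arrays. All 4 values lay below the 40th percentile of their arrays, which ran from 128 to 339, and the lowest was close to the 10th percentile of its array (10.4). The changes went opposite ways, 0.53 in experiment 1 and -2.26 in experiment 2, and the groups overlapped. In the limma fit without a filter its change was -0.87 ± 0.98 (SE, n = 2 arrays per group, adjusted p = 0.661).

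Of the 3 listed loci that passed the filter, AT2G20670 and AT2G38820 were higher with KIN10 and AT3G22970 was not called, and none was lower. With 14.7% of all tested probe sets called higher, and with AT2G20670 picked for this difference, nothing about the family as a whole is read from this count. The median log2 change of the 3 loci, 3.28, is the value of AT2G38820 in a set that includes the picked locus. It is therefore not read against the 0.033 over all tested probe sets.

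Set against its relatives, AT2G20670 had the largest change in both experiments. Its log2 change exceeded that of AT2G38820 by 3.44 in experiment 1 and by 1.54 in experiment 2, so the fold of AT2G20670 was 10.9 times that of AT2G38820 in one experiment and 2.91 times in the other. The gap to AT3G22970 was steadier, at 5.65 and 5.26 in experiments 1 and 2. As AT2G20670 was selected for a large change, these gaps are a description and were not tested. Centring shifts every probe set of an array alike, so the gaps between loci are the same on the median-centred, deposited and spike-in scales.

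**Figure D3:**
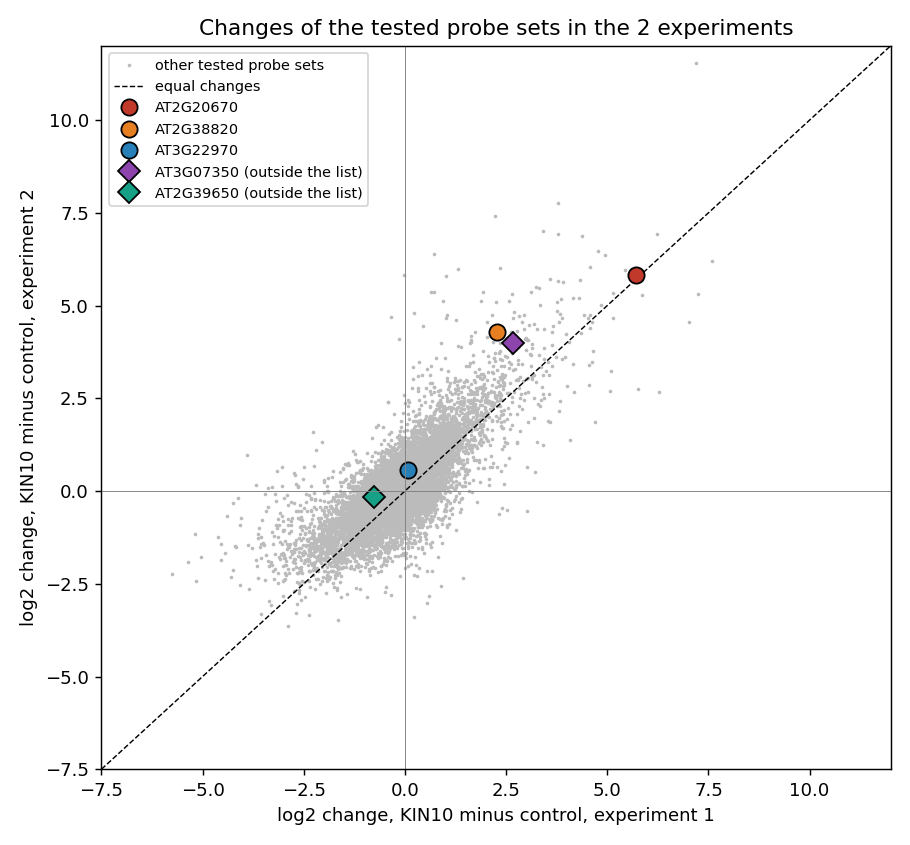
Log2 change (KIN10 minus control, median-centred) of each of the 13648 tested probe sets in experiment 1 (x axis) and experiment 2 (y axis), in grey, with the DUF506 loci in colour and a dashed line of equal changes. AT2G20670 lies almost on the line at 5.71 and 5.83, AT2G38820 and AT3G07350 lie above it, and AT3G22970 and AT2G39650 lie within the main cloud.

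Other DUF506 loci outside the list were looked up by locus from general knowledge of the family, when the listed values were read and not before, because the gene tables used carry no family names. Of 6 such loci (AT1G62420, AT2G39650, AT3G07350, AT3G54550, AT1G77145 and AT1G77160), 2 had a single-name probe set. AT3G07350 had signals of 4393 and 4019 on the KIN10 arrays of experiments 1 and 2, against 653 and 313 on the control arrays. In these deposited signals the KIN10 arrays nearly coincided and the control arrays differed, the reverse of AT2G38820, and the groups did not overlap. The arrays differ in median signal, so this contrast with AT2G38820 does not carry over to the centred values behind the changes. AT3G07350 rose 10.1-fold, a log2 change of 3.33 ± 0.28 (SE of the fit, n = 2 arrays per group, limma adjusted p = 1.34e-29, and 6.97e-32 to 0.0136 over the other settings with all 4 arrays), with 2.66 and 4.002 in experiments 1 and 2. The SD of these changes was 0.95, and, as for AT2G38820, the SE of the fit is drawn almost wholly from the other probe sets. In fits on 3 arrays without the block, AT3G07350 was not called when control array 1 was left out (3.61, limma adjusted p = 0.109) or control array 2 (3.06, limma adjusted p = 0.493).

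AT2G39650 had signals of 1388 and 1233 on the KIN10 arrays of experiments 1 and 2, against 2232 and 1703 on the control arrays. Both KIN10 arrays were below both control arrays, but the share of all tested probe sets with this order was not counted, so nothing is read from it. The difference did not pass the test (log2 change -0.46 ± 0.28, SE, n = 2 arrays per group, limma adjusted p = 0.219, and 0.0653 to 0.891 over the other settings with all 4 arrays). The changes were -0.77 in experiment 1 and -0.15 in experiment 2. Over the 6 DUF506 loci with a value, listed or not, the values thus ran from a large difference in AT2G20670 through about 10-fold rises in AT2G38820 and AT3G07350 to loci with no call.

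None of the loci with a large change had a low control signal. AT2G20670, AT2G38820 and AT3G07350 all had control signals above the 40th percentile of their arrays, as did AT3G22970 and AT2G39650. No fold of these 5 loci therefore rests on a control signal in the lowest part of its array, and an offset of 19.3 added to every signal left AT2G20670 at 5.71, AT2G38820 at 3.23 and AT3G07350 at 3.27. In the deposited signals, not adjusted for the array medians, the control arrays of experiments 1 and 2 differed by 1.27 times or less for AT2G20670 and AT2G38820. They differed by 2.09 times for AT3G07350, with experiment 1 the higher.

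The named genes whose pattern over the 4 arrays was nearest to that of AT2G20670 were AT4G27450, AT2G44380, AT2G30600, MCCA and AT5G56100. Likeness was measured as the Euclidean distance between centred log2 signals, with each gene's mean removed, over the 7470 other tested probe sets with a single name. The distances were 0.83 for AT4G27450, 0.87 for AT2G44380, 1.28 for AT2G30600, 1.28 for MCCA and 1.38 for AT5G56100. With 4 arrays this measure mostly finds genes with a similarly large KIN10 difference, so it is a description of size and shape.

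AT4G27450, a gene of the aluminium-induced protein family, had signals of 14844 and 24675 on the KIN10 arrays of experiments 1 and 2, against 398 and 764 on the control arrays. Its changes of 5.13 and 5.33 were nearly as even between the experiments as those of AT2G20670. AT2G30600, a gene for a BTB/POZ domain protein, was even too, with 4.63 and 4.56. This evenness holds after median centring, the scale on which both genes were picked as near to AT2G20670. In the deposited signals the KIN10 to control ratios in experiments 1 and 2 were 37.3 and 32.3 for AT4G27450. For AT2G30600 those ratios were 26.4 and 19.0. MCCA (4.15 and 5.20) and AT5G56100 (3.77 and 5.67) had larger changes in experiment 2. So did AT2G44380 (4.76 and 6.47), but its control signals of 205 and 120 in experiments 1 and 2 both lay below the 40th percentile of their arrays (297 and 153), so the size of its change and its distance are less certain. MCCA encodes part of an enzyme of leucine breakdown. Among the relatives, AT3G07350 was at a distance of 2.64 (rank 44 of 7470) and AT2G38820 at 2.68 (rank 46), while AT3G22970 (5.48) and AT2G39650 (6.26) were far away.

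**Figure D4:**
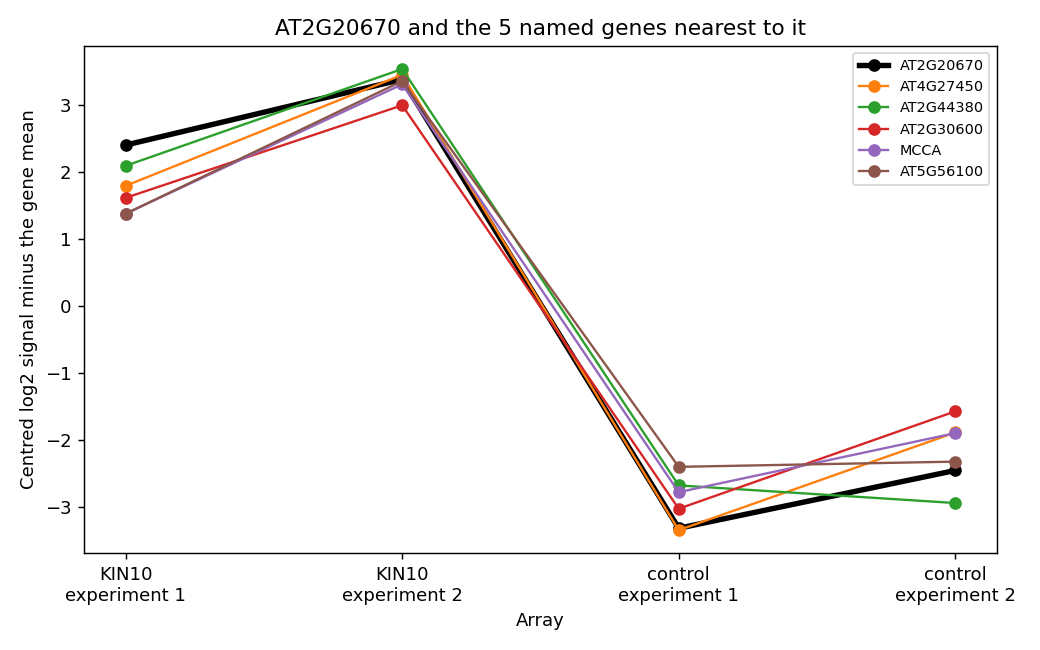
Centred log2 signal minus each gene's mean over the 4 arrays (y axis) on the KIN10 and control arrays of experiments 1 and 2 (x axis), for AT2G20670 (thick black line) and the 5 named genes nearest to it. Lines only join the values of a gene. Every gene is above its mean on both KIN10 arrays and below it on both control arrays, at distances of 0.83 to 1.38 from AT2G20670.

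As SnRK1 is tied to sugar supply, a list of 19 genes that sugar starvation or darkness is known to induce was set beside the family. It had 4 genes with a value, of which 3 were tested and all 3 rose, beside 14.7% of all tested probe sets. The list was chosen with earlier results of these data known, so this count is a description and no test. Their log2 changes in experiments 1 and 2 were 3.32 and 3.66 for AKINBETA1, a regulatory subunit of SnRK1, 4.56 and 3.39 for AT3G15450, an aluminium-induced family gene, and 4.15 and 5.20 for MCCA. AT2G20670 exceeded each of them in both experiments, but it was picked for its large change, so nothing is read from this. AT2G38820 exceeded AKINBETA1 and AT3G15450 in experiment 2 only. ATL8, a RING-type ubiquitin ligase gene, was removed by the filter, with signals of 52.5 and 249 on the KIN10 arrays of experiments 1 and 2, against 37.0 and 32.8 on the control arrays. Lists of 15 phosphate starvation genes and 4 RABD GTPase genes, chosen because of RXR1, had no gene with a single-name probe set.

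Few markers of leaf cell types could be read. Of 8 mesophyll markers only RCA (Rubisco activase) had a value, with signals of 25411 and 39110 on the KIN10 arrays of experiments 1 and 2, against 17903 and 30261 on the control arrays, and it was not called (log2 change 0.55 ± 0.35, SE, n = 2 arrays per group, limma adjusted p = 0.240). Of 5 epidermis markers SHN3 had a value, with signals of 42.9 and 16.2 on the KIN10 arrays and 57.1 and 20.3 on the control arrays. Of 5 guard cell markers FMA had a value, with 479 and 146 on the KIN10 arrays and 586 and 262 on the control arrays, and it was not called (-0.45 ± 0.37, limma adjusted p = 0.393). Of 4 root hair markers EXPA7 and EXPA18 had a value, summing to 473 and 133 on the KIN10 arrays and 545 and 253 on the control arrays, and neither passed the filter. EXPA7 had signals of 302 and 84.7 on the KIN10 arrays and 244 and 101 on the control arrays. EXPA18 had 171 and 48.5 on the KIN10 arrays and 300.1 and 152 on the control arrays. None of the 4 phloem or 3 trichome markers had one. The median-centred changes in experiments 1 and 2 were -0.50 and -0.01 for SHN3, -0.38 and -0.52 for FMA, 0.21 and 0.07 for EXPA7 and -0.90 and -1.33 for EXPA18, so these markers had no common direction. All 4 signals of SHN3 and of EXPA7 and 3 of EXPA18 lay below the 40th percentile of their arrays. The part of other cell types in these results was not tested.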

How the data were processed

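The authors deposited 1 linear intensity value per probe set for each of 4 Affymetrix arrays, made with GCOS 1.0 per the submitters' processing notes, with settings not given in the sources used. After trimming 2% at each end, the mean intensity of an array was 1500.13 to 1500.15.

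A single 0 was raised to the smallest positive value on that array before log2 was taken. The median over 22746 probe sets, with 64 control probe sets set apart, was subtracted from each array. Probe sets under the 40th percentile of mean log2 signal (9098) were removed, and limma 3.58.1 (R 4.3.3) was run on 13648 (lmFit and trended eBayes, experiment as a block, Benjamini-Hochberg adjustment). The fit was also run on simulated data with known changes, always with a block, so that run does not show how far the real calls depend on the block. The design text pairs the arrays of an experiment, and their deviations from the group means correlated with r = 0.705. The precision is limited by having 2 arrays per group. The platform annotation gave 13513 probe sets 1 gene name, 503 several and 8730 none, with symbols updated through a RefSeq table of assembly TAIR10.1. The transcript of KIN10 had no single-name probe set, so it gives no check of the labels.

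The named genes are every listed DUF506 locus with a value, the genes of the lists with a value, and the 5 named genes nearest to AT2G20670. The members and lists were chosen with earlier results of these data known. The alternatives concern the block, the centring, the filter, an offset of 19.3, the trend, a robust prior and leaving out each array.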

Additional observations from a re-analysis of the deposited data

How the results depend on the processing

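Under the 10 other settings with all 4 arrays, the change of AT2G20670, which has no test here, was 5.40 to 5.77. AT2G38820 (2.91 to 3.28) stayed past the threshold in the same direction, and AT3G22970 (-0.06 to 0.32) was called in none. Without the replicate block the changes were the same and AT2G38820 had a limma adjusted p = 0.0380, but only 173 probe sets were called in all, against 4117. The block changed no call among the relatives. Leaving out single arrays, without a block, the count of calls was 85 without control array 1, 96 without control array 2, 869 without KIN10 array 1 and 486 without KIN10 array 2. In these fits the change of AT2G20670 ran from 5.28 to 6.26, that of AT2G38820 from 2.19 to 4.37 and that of AT3G22970 from -0.01 to 0.64. These fits have fewer arrays, and where a group keeps 1 array it is assumed to vary like the other group. Without control array 1 the change of AT2G20670 was 5.34, and AT2G38820 was not called (3.20), nor was it without control array 2 (3.36). As deposited, the change in experiment 2 minus that in experiment 1 was -0.29 for AT2G20670, 1.61 for AT2G38820 and 0.091 for AT3G22970, against 0.12, 2.02 and 0.50 after centring, since centring shifts whole arrays. Signals near the low end of the arrays limit AT1G12030, whose mean change ran from -1.24 to -0.40 under these settings and from -1.67 to -0.07 with 1 array left out.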

Other observations

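Of the 8 protein-coding genes that flank the 4 listed loci in the RefSeq gene order, a set chosen after the listed values were seen, only AT3G22980, next to AT3G22970, had a single-name probe set. Its signals were 1468 and 1468 on the KIN10 arrays of experiments 1 and 2, against 2533 and 2495 on the control arrays. Both KIN10 arrays were lower in these deposited signals, an order whose share over all tested probe sets was not counted. The change was not called (log2 change -0.66 ± 0.29, SE, n = 2 arrays per group, limma adjusted p = 0.0654).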
